A study of Caenorhabditis briggsae with 10 samples.

Results

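The response of a Caenorhabditis briggsae hybrid to extreme cold was set, gene by gene, beside the mean response of the strains it was made from, which is called the mid-parent. A gene was a member when its reads assigned to the HK104 and to the AF16 allele summed to at least 20 in each of the 2 hybrid libraries. This held for 8100 of 23175 genes, and the 8099 of them that also passed the expression filter of the parental libraries are described here. Whole worms of the nematode were grown at 20 °C for 24 hours from the mid to late L4 larval stage, and the cold groups were then held at 4 °C for 60 hours, per the labels. RNA was sequenced from 1 cold and 1 control library of the AF16/HK104 hybrid, from 2 cold and 2 control libraries of HK104, a strain of temperate origin, and from 2 cold and 2 control libraries of AF16, a strain of tropical origin. All were labelled wild type. Controls were collected before the cold period began, so a response to cold cannot be told apart from the passing of those 60 hours. The labels give neither the sex of the worms, the generation of the hybrid nor the direction of the cross, and they do not say whether replicates were separate cultures. P-values of the strains therefore measure the spread between these libraries, which may be technical. With a single hybrid library per condition, the hybrid's response has no replicate check and was described without a test. Its rises and falls are therefore statements of size alone.

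Cold slows the development and metabolism of nematodes, and strains from temperate and tropical regions can differ in how well they survive it. A hybrid carries both genomes in each nucleus. Its response at a gene is called additive where it lies midway between those of the parents, dominant where it resembles that of one parent, and transgressive where it lies outside the range of both. As background from the genetics of gene regulation, a difference written in the sequence next to a gene is expected to stay with its allele in a hybrid, whereas a difference in a diffusible regulator acts on both alleles. The genes are given by their WormBase identifiers, since 0 of the 23175 identifiers matched the gene table of 22727 genes used here. Roles of single genes, chromosomes, sequences and marker lists of tissues are therefore not reported. In whole-worm RNA, fewer cells of a type and less RNA per cell cannot be told apart.

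The hybrid libraries held 6008659 (cold) and 5334965 (control) reads assigned to an allele, against 15360979 to 18362210 counts in the 8 parental libraries. Levels are given as CPM, read counts scaled to the size of the library by the trimmed mean of M-values within each table. A hybrid CPM value relates to assigned reads alone and the tables were scaled separately, so a hybrid level beside a parental level is given only as a description of the reads, not as a difference in expression. The ratio of cold to control within the hybrid does not need that comparison. The mid-parent of the replicate 1 libraries and that of the replicate 2 libraries differed in size by a median of 0.37 on the log2 scale. The hybrid differed from the mid-parent of replicate 1 by a median of 0.26, from that of replicate 2 by 0.32, and from their joint mid-parent by 0.22.

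The hybrid responded in the direction of the mid-parent at most genes. Its median log2 ratio of cold to control was 0.09, with quartiles of -0.35 and 0.44, beside a mid-parent median of 0.10 with quartiles of -0.32 and 0.31. Hybrid and mid-parent had the same sign at 6604 genes (81.5%). At 6596 genes (81.4%) the hybrid lay within 0.5 of the mid-parent on the log2 scale, and at 7834 (96.7%) within 1. The mid-parent itself lay between -0.5 and 0.5 at 5560 genes, so closeness at most genes is closeness of small responses. Of the 1122 genes with a mid-parent response of at least 2-fold, 1103 (98.3%) moved in that direction in the hybrid. Across the 8099 genes, which share their libraries and are not independent replicates, the hybrid response correlated with the mid-parent with Pearson's r = 0.868 (Spearman's rho = 0.776), with HK104 with r = 0.832 and with AF16 with r = 0.829. The strains correlated with each other with r = 0.832. The mid-parent averages 8 libraries and each strain 4, so the higher r with the mid-parent is not a measure of additivity. A least-squares fit of the hybrid response on both strains gave similar weights, 0.47 for HK104 and 0.46 for AF16. These weights largely follow from the near-equal correlations with the 2 strains, so they are no measure of additivity either.

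**Figure D1:**
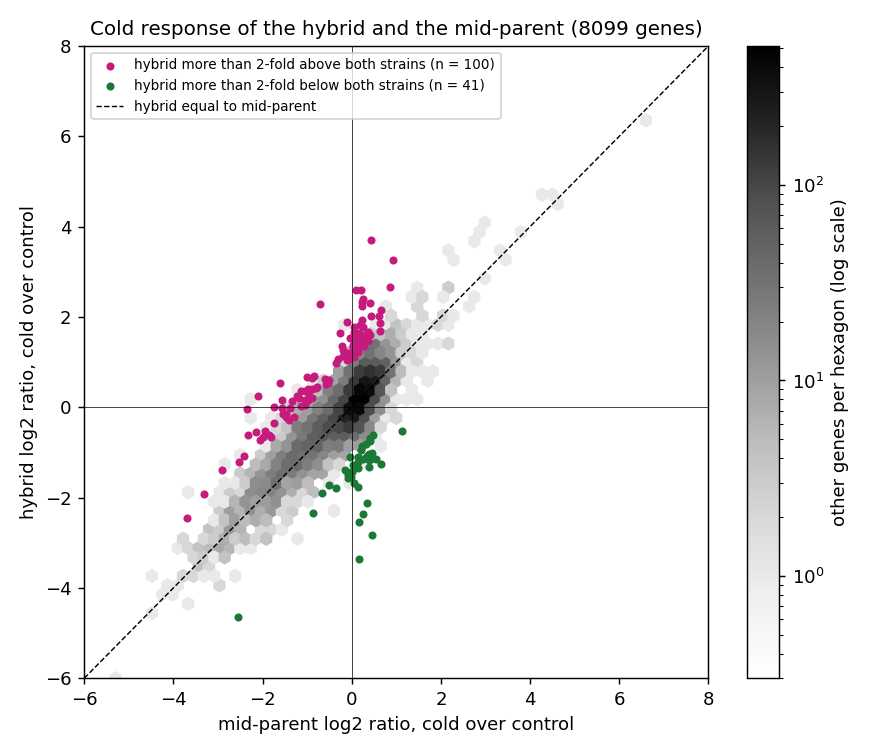
Log2 ratio of cold to control in the hybrid (vertical axis) against the mid-parent of HK104 and AF16 (horizontal axis) for 8099 genes, with grey hexagons for gene density on a log scale. Most genes lie along the dashed line of equality, 100 lie more than 2-fold above both strains (pink) and 41 more than 2-fold below both (green).

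By size alone, 379 genes (4.68%) were at least 2-fold higher and 931 (11.5%) at least 2-fold lower after cold in the hybrid, against 87 (1.07%) and 1035 (12.8%) for the mid-parent. The mid-parent is a mean over libraries and the hybrid a ratio of single libraries, so the hybrid was also set beside the 8 ratios of 1 parental cold library to 1 parental control library of the same strain. These ratios gave 94 to 521 genes at least 2-fold higher and 779 to 1400 at least 2-fold lower, and the hybrid's counts lay within both ranges. The strains' mean response was tested with edgeR's quasi-likelihood test on the 8 parental libraries. It called 4950 of 13503 genes (36.7%), of which 1354 were higher (10%) and 3596 lower (26.6%) after cold, at a Benjamini-Hochberg adjusted p (FDR) below 0.05. Calls to higher levels made up 27.4% of these calls, 39.9% with DESeq2 size factors, 35.9% with total counts, 15.3% with upper-quartile scaling and 42.0% in the DESeq2 test. Without 1 library they numbered from 514 (second HK104 control) to 2341 (second AF16 cold library) and 2610 (first AF16 cold library). Of the 931 hybrid falls, 846 were among the called falls, and of the 379 hybrid rises, 188 were among the called rises. The mid-parent was itself above 0 at 363 of the 379, but below 0.5 at 173 of the 379. Its median over all members was 0.10. Upper-quartile scaling moved the median response by -0.13 in the hybrid and by -0.14 in the mid-parent. DESeq2 size factors moved it by 0.04 in the hybrid and by 0.10 in the mid-parent, which gave a median departure of the hybrid of -0.0021 in place of 0.05. The hybrid departed from the mid-parent by at least 2-fold at 196 genes to higher (2.42%) and at 69 to lower levels (0.852%).

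The 5 steepest falls among genes with at least 100 summed reads in each hybrid library were falls of both strains as well. WBGene00024680 had 16.4 CPM in the hybrid cold library against 276 CPM in the hybrid control library. The strains had 5.99 and 4.55 CPM in the HK104 cold libraries against 82.8 and 96.6 CPM in the HK104 controls, and 4.95 and 4.77 CPM in the AF16 cold libraries against 116 and 113 CPM in the AF16 controls. The hybrid log2 ratio was -4.06 (95% counting interval -4.38 to -3.78), inside the parental single-library ratios of -4.57 to -3.76. This interval and those below cover counting error only. WBGene00038279 had 23.6 CPM in the hybrid cold library against 314 CPM in the hybrid control library, a log2 ratio of -3.73 (95% counting interval -3.99 to -3.49), beside a tested mean of the strains of -3.52 ± 0.17 (SE, edgeR FDR = 8.63e-07). WBGene00030510, WBGene00038323 and WBGene00023835 had hybrid log2 ratios of -3.51, -3.51 and -3.49, and each lay within its parental single-library ratios. At all 5 genes every cold library of hybrid, HK104 and AF16 was below every control library of the same kind, and both alleles of the hybrid fell.

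The 5 steepest rises under the same minimum of 100 reads were less uniform. That contrast holds only for genes that pass the minimum. It leaves out 182 of the 379 hybrid rises of at least 2-fold, where a hybrid library held fewer than 100 reads. Steeper rises are among those left out, such as WBGene00042194, described below, with a log2 ratio of 6.29 and calls to higher levels in both strains. WBGene00032553 had 231 CPM in the hybrid cold library against 36.3 CPM in the hybrid control library. The strains had 227 and 181 CPM in the HK104 cold libraries against 23.4 and 13.4 CPM in the HK104 controls, and 31.7 and 31.6 CPM in the AF16 cold libraries against 17.9 and 15.1 CPM in the AF16 controls. Its hybrid log2 ratio of 2.67 (95% counting interval 2.45 to 2.90) lay between the responses of 3.51 in HK104 and 0.94 in AF16, and the cold and control libraries did not overlap in any of them. WBGene00041865 had a hybrid log2 ratio of 1.97 (95% counting interval 1.78 to 2.17), beside a mid-parent of 1.94. WBGene00036445 had 165 CPM in the hybrid cold library against 33.2 CPM in the hybrid control library, a log2 ratio of 2.31 (95% counting interval 2.08 to 2.55). The strains had 411 and 352 CPM in the HK104 cold libraries against 314 and 287 CPM in the HK104 controls, and 286 and 588 CPM in the AF16 cold libraries against 254 and 340.2 CPM in the AF16 controls, so that cold and control overlapped in AF16, and the hybrid lay above all single-library ratios (-0.25 to 1.21). WBGene00033728 and WBGene00035809 had log2 ratios of 2.03 and 2.02 in the hybrid, where the replicates of the strains were far apart. Their parental single-library ratios ran from -1.05 to 2.74 and from -1.06 to 2.42, and included the hybrid's value.

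The size of the hybrid response was compared with the mid-parent over genes grouped by the calls in the strains. The 753 members that fell in both strains had a hybrid median log2 ratio of -1.63 beside a mid-parent of -1.81, and 746 of them (99.1%) were lower after cold in the hybrid. Where only AF16 had a call to lower levels (367 members), the hybrid median was -0.81, with the mid-parent at -1.0, HK104 at -0.61 and AF16 at -1.44. Where only HK104 had one (149 members), the hybrid median was -0.77, with the mid-parent at -1.0, HK104 at -1.35 and AF16 at -0.69. In both of these sets the hybrid median was closer to the strain without a call, and the call itself had picked the strain with the larger response. The minimum of 20 reads also left out genes with few hybrid cold reads. For the cold library alone it left out 166 of 913 genes with the AF16 call only and 100 of 463 with the HK104 call only. For the control library alone it left out 5 and 6. Its part in the hybrid medians of falling genes was not tested. The background share of genes called lower is 16.6% in HK104 and 20.1% in AF16, and that of genes called higher is 4.54% in HK104 and 2.78% in AF16.

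Among rising genes the hybrid median was close to the mid-parent. The 132 members that rose in both strains had a hybrid median of 0.96 beside a mid-parent of 0.88, and 130 of them were higher after cold in the hybrid. The 252 members with a call to higher levels only in HK104 had a hybrid median of 0.76, between HK104 (0.96) and AF16 (0.44) and close to the mid-parent of 0.68. The 76 members with such a call only in AF16 had a hybrid median of 0.62 and a mid-parent of 0.60. A call in 1 strain alone does not show that the strains differ. The 6355 members without a call had a hybrid median of 0.15 and a mid-parent of 0.14. After cold the hybrid was higher at 4078 of them and lower at 2277.

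**Figure D2:**
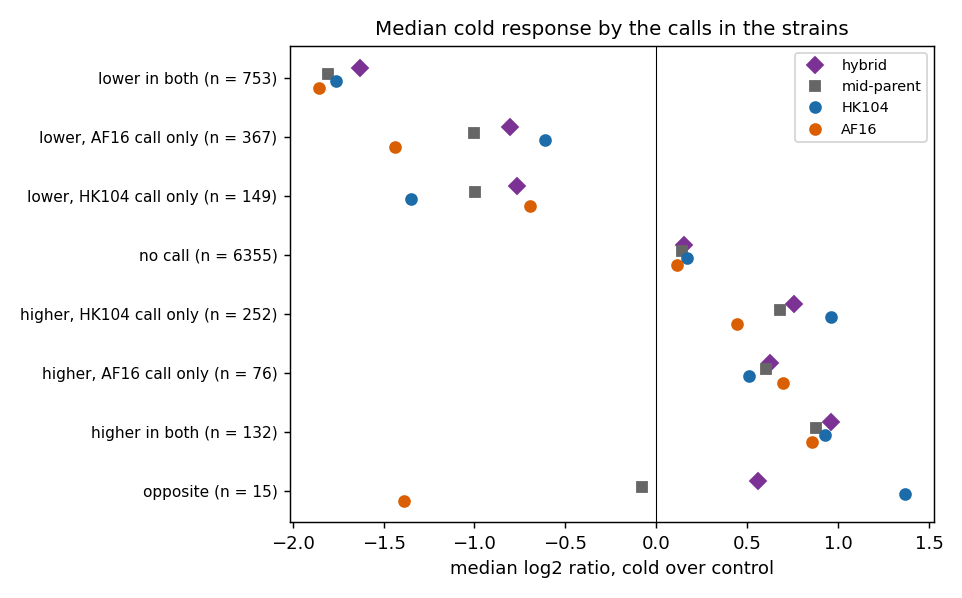
Median log2 ratio of cold to control for the hybrid, the mid-parent, HK104 and AF16 (horizontal axis) in 8 groups of member genes, defined by edgeR calls in the strains. In the 3 groups of falling genes the hybrid median lies above the mid-parent (-1.63 against -1.81 where both strains fell), and in the 15 genes with opposite calls it lies at 0.56.

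Over the 1122 genes with a mid-parent response of at least 2-fold, the median response in the mid-parent's direction was 1.48 in the hybrid and 1.61 for the mid-parent, 91.8% of its size. It was 90.1% for the 1035 falling genes and 106% for the 87 rising genes. The difference from full size was smaller than the difference between parental replicates. For genes chosen in the replicate 1 libraries and measured against the replicate 2 libraries the hybrid reached 81.9%, and in the reverse direction 106%. In the same order, it reached 78.9% and 106% for falling genes. For rising genes it reached 175% (226 genes) and 102% (83 genes). The minimum of 20 reads in each hybrid library also bears on the size of the hybrid response. For the cold library alone, 587 of the 1775 genes that fell in both strains were left out. For the control library alone, 59 of the 216 genes that rose in both were left out. With a mean of at least 20 over both hybrid libraries in place of the minimum, 9077 genes entered and the hybrid reached 99.2%.

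Dominance can be read only where the strains differ in their response. At 423 members (5.22%) the log2 responses of HK104 and AF16 were at least 1 apart, and at 340 of these (80.4%) the hybrid lay between them. These genes were chosen for a wide interval, which spread between libraries can widen, so that share is no measure of inheritance. A test of the strain difference, given below, called 40 of them. Dividing the interval between the strains, 132 genes were HK104-like, 199 near the mid-parent and 89 AF16-like, where the limits between them lay midway between each strain and the mid-parent. The other 3 lay more than 2-fold outside both strains. From AF16 to HK104, with 0% at AF16 and 100% at HK104, the hybrid stood at 57.9%, from a median step of 0.81 over a median strain difference of 1.40. Measured in parental libraries that had not chosen the genes, this position was 68.4% for the replicate 2 libraries and 39.7% for the replicate 1 libraries, and leaving out the first HK104 cold library gave 37.0%. A lean toward either strain was therefore smaller than the spread between replicates. The classes moved likewise: there were 272 HK104-like genes without the first AF16 cold library, 387 near the mid-parent and 179 AF16-like genes without the second HK104 cold library, and 181 AF16-like genes without the first. Toward the strain with the larger response, whichever it was, the hybrid stood at 44.5%. It was nearer to that strain at 176 of the 423 genes (41.6%). The larger response was picked in the same libraries that measured it, which inflates it. These values were not measured in other libraries, so they are not read as a lean toward the smaller response.

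The test of the strain difference itself called 67 of 13503 genes (0.496%) at an FDR below 0.05, with 59 (0.437%) responding higher and 8 (0.0592%) lower in HK104 than in AF16. Of these 67 genes, 40 were members. Among the 40, the hybrid was HK104-like at 14, near the mid-parent at 20 and AF16-like at 6, and it lay between the strains at 35. None of the 40 lay more than 2-fold beyond both strains, against 1.74% of all members. The 40 were called for a strain difference, with a median of 2.62 on the log2 scale, which leaves less room outside both strains. The counts between and beyond the strains are therefore no measure of inheritance. HK104 had the higher response at 34 of the 40, and likewise at 338 of the 423 members with strain responses at least 1 apart. The number of called genes depended on single libraries. It was 0 without the first HK104 cold library, where 785 genes had an unadjusted p below 0.05 in edgeR's quasi-likelihood test. It was 1 without the second AF16 cold library or either HK104 control, 3 and 5 without an AF16 control, 49 without the first AF16 cold library and 74 without the second HK104 cold library. With total counts in place of the trimmed mean it was 0 as well, with 787 genes at an unadjusted p below 0.05, while the DESeq2 test called 167.

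**Figure D3:**
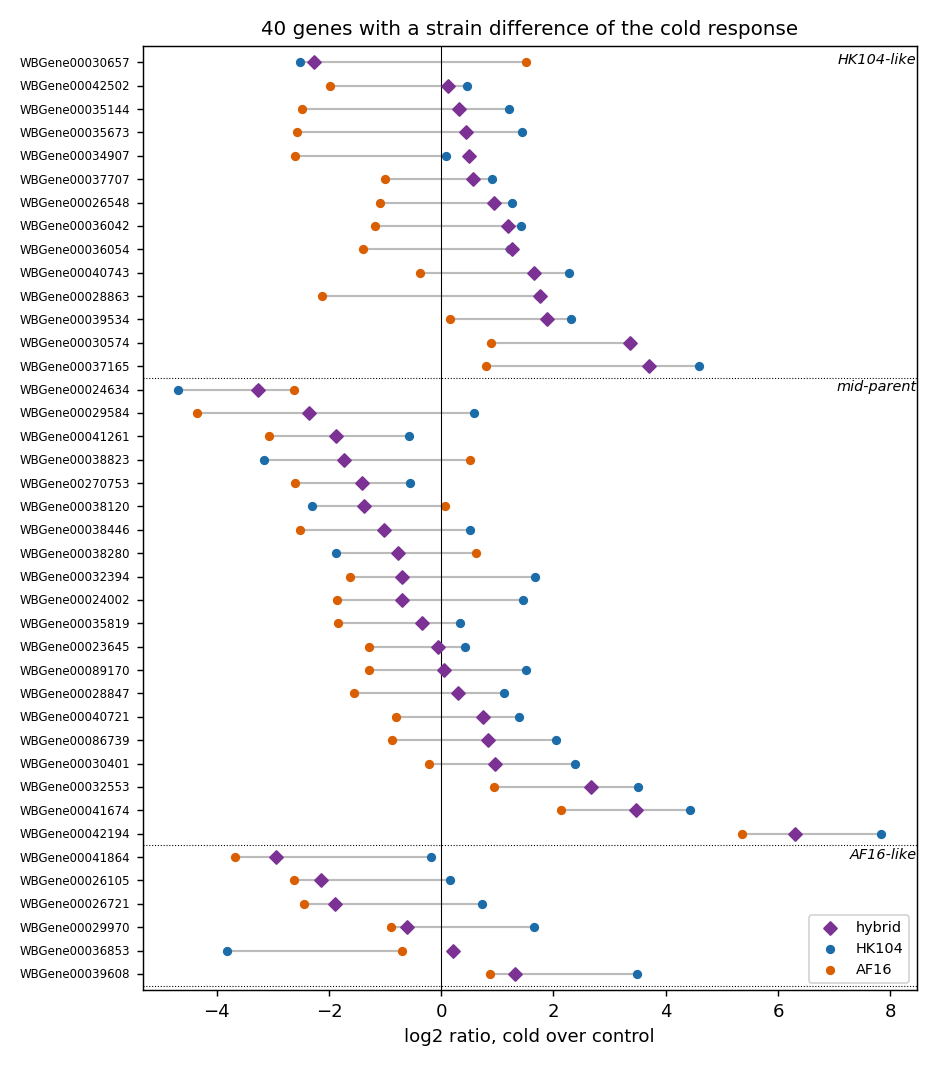
Log2 ratio of cold to control (horizontal axis) in the hybrid (diamonds), HK104 and AF16 (circles, joined by a grey line) for the 40 member genes whose response differed between the strains at an edgeR FDR below 0.05. The hybrid lies between the strains at 35 genes, and in 14 it lies nearer to HK104, in 20 near the middle and in 6 nearer to AF16 by the limits used.

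The 14 HK104-like genes had a hybrid median log2 ratio of 1.07, beside 1.34 in HK104 and -1.13 in AF16, and 13 of them were higher after cold in the hybrid. Among the 6355 members without a call in either strain, 4078 were higher in the hybrid. WBGene00028863 had 21.8 CPM in the hybrid cold library against 6.30 CPM in the hybrid control library. The strains had 11.4 and 7.52 CPM in the HK104 cold libraries against 3.02 and 2.33 CPM in the HK104 controls, and 0.626 and 0.978 CPM in the AF16 cold libraries against 2.59 and 5.76 CPM in the AF16 controls. The hybrid log2 ratio was 1.77 (95% counting interval 1.23 to 2.39) beside 1.75 in HK104 and -2.12 in AF16, and the difference between the strains was 4.19 ± 0.65 (SE, edgeR FDR = 0.0247). Cold libraries were higher than controls in the hybrid and in HK104, and lower in AF16. WBGene00035673 had 5.24 CPM in the hybrid cold library against 3.82 CPM in the hybrid control library, a log2 ratio of 0.44 (95% counting interval -0.39 to 1.34) from few reads, whose interval includes 0, beside 1.45 in HK104 and -2.57 in AF16. WBGene00030657 had 7.21 CPM in the hybrid cold library against 35.3 CPM in the hybrid control library, where HK104 fell by 2.51 on the log2 scale. AF16 had 0 counts in both control libraries and 4 and 5 counts in the cold libraries, so its response is not known at this depth, and 184 of 185 hybrid control reads came from the HK104 allele. At 8 of the 14 genes a hybrid library held fewer than 50 reads.

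The 20 genes near the mid-parent had a hybrid median of -0.51, beside 0.86 in HK104 and -1.29 in AF16. WBGene00029584 had 16.9 CPM in the hybrid cold library against 86.4 CPM in the hybrid control library. The strains had 179 and 80.8 CPM in the HK104 cold libraries against 78.9 and 81.3 CPM in the HK104 controls, and 3.99 and 12.3 CPM in the AF16 cold libraries against 139.9 and 152 CPM in the AF16 controls. The hybrid log2 ratio was -2.35 (95% counting interval -2.68 to -2.05) beside a mid-parent of -1.88, and the strain difference was 4.86 ± 0.67 (SE, edgeR FDR = 0.0228). The hybrid was lower after cold, as was AF16, but by less. WBGene00038823 had 4.10 CPM in the hybrid cold library against 13.9 CPM in the hybrid control library, a log2 ratio of -1.73 (95% counting interval -2.48 to -1.09) beside a mid-parent of -1.32, with -3.15 in HK104 and 0.51 in AF16. WBGene00024002 had 3.60 CPM in the hybrid cold library against 5.92 CPM in the hybrid control library, and its interval of -1.57 to 0.12 on the log2 scale covers the mid-parent of -0.20. WBGene00042194, named after its values were seen, held 5733 reads in the hybrid cold library against 62 in the hybrid control library. Its log2 ratio of 6.29 was the highest of the 40 genes, between 7.84 in HK104 and 5.36 in AF16.

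The 6 AF16-like genes had a hybrid median of -1.25, beside 0.45 in HK104 and -1.66 in AF16, and 5 of them had fewer than 50 reads in a hybrid library. WBGene00041864 had 4.10 CPM in the hybrid cold library against 32.4 CPM in the hybrid control library. The strains had 24.8 and 12.8 CPM in the HK104 cold libraries against 22.7 and 18.0 CPM in the HK104 controls, and 2.22 and 1.90 CPM in the AF16 cold libraries against 28.4 and 27.2 CPM in the AF16 controls. The hybrid log2 ratio was -2.94 (95% counting interval -3.65 to -2.37) beside -0.18 in HK104 and -3.67 in AF16, with a strain difference of 3.64 ± 0.47 (SE, edgeR FDR = 0.022). The hybrid and AF16 fell with no overlap between cold and control, and the HK104 libraries overlapped. WBGene00026721 had 3.77 CPM in the hybrid cold library against 14.3 CPM in the hybrid control library, a log2 ratio of -1.89 (95% counting interval -2.67 to -1.23) beside 0.73 in HK104 and -2.44 in AF16. WBGene00036853 had 30.3 CPM in the hybrid cold library against 26.3 CPM in the hybrid control library, a log2 ratio of 0.20 (95% counting interval -0.12 to 0.53), which is 0.70 above every parental single-library ratio. In HK104 this gene had 3 counts in both cold libraries together against 107 in both controls, a ratio of 0.0305 (95% counting interval 0.0062 to 0.0917).

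At 15 members both strains had calls in opposite directions, with 14 of them higher in HK104 and lower in AF16. Of these 15, 13 are among the 40 genes above, so they are mostly a second view of the same genes. The hybrid was higher after cold at 12 of the 15 and lower at 3, with a median of 0.56 beside 1.37 in HK104 and -1.38 in AF16. Among the 6355 members without a call it was higher at 4078 and lower at 2277. By position, 10 of the 15 were HK104-like, 5 near the mid-parent and 0 AF16-like.

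The alleles of the hybrid were read apart to see whether each kept the response of its own strain. In the 132 HK104-like genes of the wider set the HK104 allele had a median log2 ratio of 0.03 and the AF16 allele of 0.01, whereas the strains had 0.06 (HK104) and -1.20 (AF16). In the 89 AF16-like genes the HK104 allele had a median of -1.06 and the AF16 allele of -0.99, against -0.12 in HK104 and -1.20 in AF16. In the 199 genes near the mid-parent the alleles had -0.49 (HK104) and -0.82 (AF16), against -0.03 in HK104 and -1.31 in AF16. These classes were set by the summed reads of both alleles. Allele medians near the strain of a class therefore follow in part from the choice, and do not show whether an allele left its strain's response. The difference between the alleles was also read over genes chosen by the strains alone. Across all 423 genes the alleles differed in the direction of the strains by a median of 0.21, which is 14.8% of the strain difference of 1.40. With genes chosen in one parental replicate and measured in the other, this share was 13.4% and 14.1%. In the 40 called genes it was 17.1%. At 26 of the 40 the alleles differed in the direction of the strains. That count was not compared with the share over other genes, and some of the 40 had few reads. The alleles of the hybrid thus differed less in their response than the strains did. How reads were assigned to alleles is not given in the sources used here, and the accuracy of that assignment was not tested.

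Single genes show both patterns. WBGene00029584 had 58 HK104 and 45 AF16 reads in the hybrid cold library against 235 HK104 and 218 AF16 reads in the hybrid control library, so that both alleles fell, although the HK104 cold and control libraries overlapped. WBGene00041864 had 13 HK104 and 12 AF16 reads in the hybrid cold library against 87 HK104 and 83 AF16 reads in the hybrid control library, again with both alleles lower after cold. WBGene00038280, named after its values were seen, had log2 ratios of -1.65 for the HK104 allele and 0.64 for the AF16 allele, close to -1.87 in HK104 and 0.61 in AF16. WBGene00038120, also named after its values were seen, had -1.81 for the HK104 allele and 0.22 for the AF16 allele, beside -2.31 in HK104 and 0.07 in AF16.

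Responses outside the range of both strains were described in both directions. The hybrid lay more than 2-fold above both strains at 100 genes (1.23%) and more than 2-fold below both at 41 (0.506%). At 95 (1.17%) and 40 (0.494%) of them it also lay beyond all 8 single-library ratios of the strains. By any amount, it lay above all 8 ratios at 1026 genes (12.7%) and below all 8 at 784 (9.68%). The minimum of 20 reads in each hybrid library bears on the balance of the 2 directions. Of all tested genes it left out 1116 for the cold library alone and 455 for the control library alone. With a mean of at least 20 in its place, 166 genes lay more than 2-fold above both strains and 132 below. The excess above both strains is therefore not read as a result. The 100 genes above had a hybrid median of 1.07, beside -0.39 in HK104 and -0.43 in AF16. At 79 of them the hybrid was higher after cold, and at 38 of these the mid-parent was lower. At the other 21 the hybrid fell by less than either strain. The 41 genes below had a hybrid median of -1.29, beside 0.22 in HK104 and 0.15 in AF16. All 41 were lower after cold in the hybrid, and at 30 of them the mid-parent was higher.

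The share of such genes fell with the number of hybrid reads. Among the 1623 genes whose smaller hybrid library held 20 to 49 reads, 5.11% lay more than 2-fold beyond both strains, against 2.13% of 1127 genes with 50 to 99, 0.969% of 2993 genes with 100 to 499 and 0.212% of 2356 genes with 500 or more. With a minimum of 100 reads, 25 genes remained above and 9 below. The median size of the departure from the mid-parent was 0.39 at 20 to 49 reads and 0.14 at 500 or more, and the part of read depth in these counts was not tested.

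**Figure D4:**
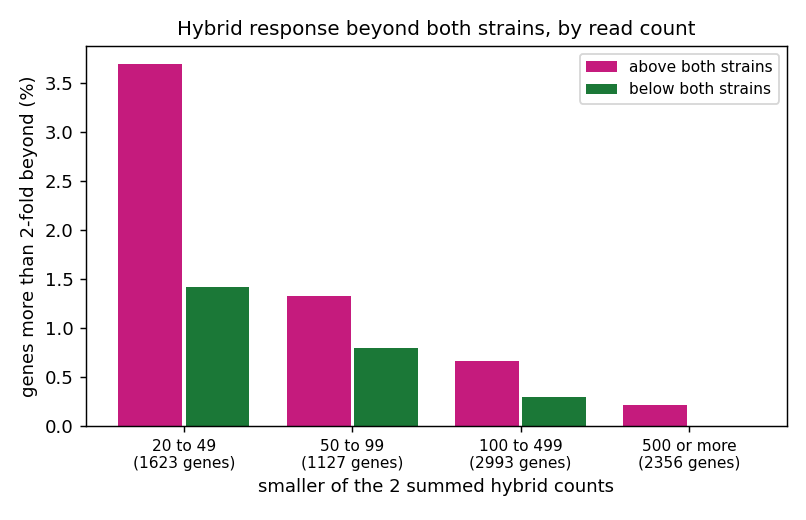
Percentage of member genes whose hybrid response lay more than 2-fold above (pink) or below (green) both strains, by the smaller of the 2 summed hybrid counts. The percentage of either direction together is 5.11 at 20 to 49 reads and 0.212 at 500 or more.

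The make-up of the hybrid reads moved with these responses. The allele with fewer reads held under 10% of them at 19 of the 41 genes below (46.3%) and at 15 of the 100 genes above (15.0%), against 539 of all 8099 members (6.66%). The hybrid level was more than 4-fold under the parental level at 23 of the 41 genes below (56.1%) and at 16 of the 100 above (16.0%), against 6.77% of the 7538 genes whose strains were under 2-fold apart and whose hybrid response lay in neither set. That level is set across separately scaled tables. Among the 4045 genes with at least 10% of reads from each allele and a hybrid level within 2-fold of the parents, a choice made after the values were seen, 47 (1.16%) lay above and 11 (0.272%) below. The part of few assignable reads in the responses below both strains was not tested.

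The 4 genes farthest above every parental ratio, with at least 50 reads in each hybrid library, show how the reads were distributed. WBGene00028376 had 89.3 CPM in the hybrid cold library against 18.1 CPM in the hybrid control library. The strains had 248 and 267 CPM in the HK104 cold libraries against 373 and 409 CPM in the HK104 controls, and 279.9 and 318 CPM in the AF16 cold libraries against 484 and 558 CPM in the AF16 controls. The hybrid log2 ratio was 2.29 (95% counting interval 1.98 to 2.63), against parental ratios of -1.0 to -0.48, so that the hybrid was higher after cold where the cold libraries of both strains were lower. All 640 hybrid reads came from the AF16 allele, and the HK104 allele had 0 in both libraries, while HK104 itself expressed the gene. WBGene00041389 had 46.9 CPM in the hybrid cold library against 14.9 CPM in the hybrid control library, and 357 of its 364 reads were from the HK104 allele. In the strains it had 464 and 529.5 CPM in the HK104 cold libraries against 592 and 583 CPM in the HK104 controls, and 372 and 624 CPM in the AF16 cold libraries against 565 and 619 CPM in the AF16 controls. Cold and control libraries overlapped in AF16, and the hybrid log2 ratio of 1.65 (95% counting interval 1.29 to 2.03) lay above all parental ratios.

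WBGene00032680 had 93.5 CPM in the hybrid cold library against 17.6 CPM in the hybrid control library. The strains had 75.6 and 89.1 CPM in the HK104 cold libraries against 70.7 and 66.9 CPM in the HK104 controls, and 71.2 and 75.3 CPM in the AF16 cold libraries against 63.7 and 59.9 CPM in the AF16 controls. Its rise, a log2 ratio of 2.40 (95% counting interval 2.09 to 2.75), was carried by 1 allele: there were 36 HK104 and 535 AF16 reads in the hybrid cold library against 35 HK104 and 57 AF16 reads in the hybrid control library. WBGene00030647 had 10.6 CPM in the hybrid cold library against 40.6 CPM in the hybrid control library. The strains had 3.06 and 2.24 CPM in the HK104 cold libraries against 28.0 and 26.1 CPM in the HK104 controls, and 1.42 and 1.44 CPM in the AF16 cold libraries against 14.8 and 16.4 CPM in the AF16 controls. At this gene every cold library was below the controls of its kind, and the hybrid was lower by less, with a log2 ratio of -1.92 (95% counting interval -2.36 to -1.53) beside a tested mean of the strains of -3.39 ± 0.20 (SE, edgeR FDR = 2.01e-06). Both alleles took part, with 42 HK104 and 23 AF16 reads in the hybrid cold library against 123 HK104 and 90 AF16 reads in the hybrid control library.

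**Figure D5:**
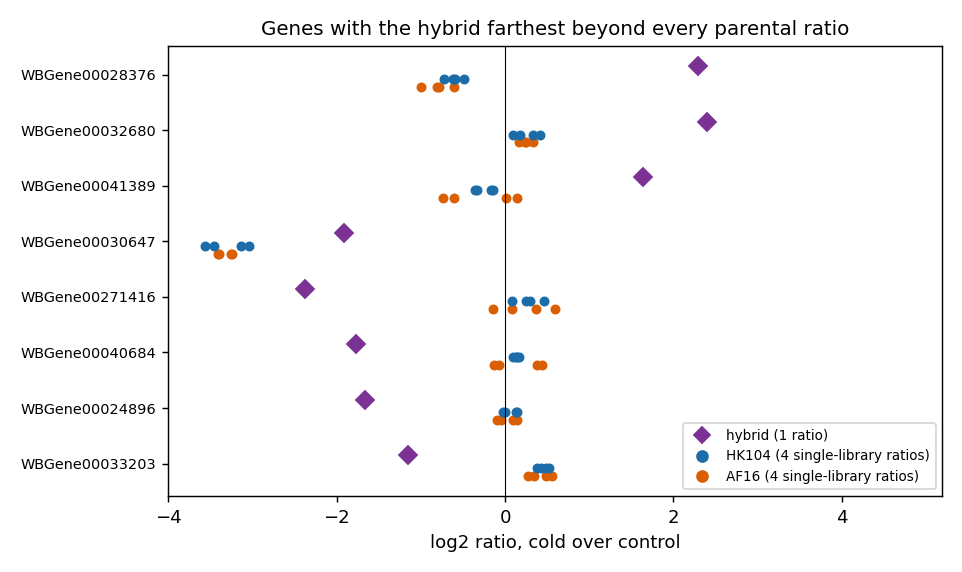
Log2 ratio of cold to control (horizontal axis) in the hybrid (diamonds) and in each pairing of 1 cold with 1 control library of HK104 and AF16 (circles, 4 per strain) for the 8 genes farthest beyond every parental ratio. At WBGene00028376 the hybrid stands at 2.29 and the strains between -1.0 and -0.48, and at WBGene00271416 the hybrid stands at -2.37 and the strains between -0.15 and 0.60.

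The 4 genes farthest below every parental ratio had mid-parent log2 ratios between 0.04 and 0.43. WBGene00271416 had 8.35 CPM in the hybrid cold library against 43.9 CPM in the hybrid control library. The strains had 48.8 and 42.2 CPM in the HK104 cold libraries against 39.7 and 35.4 CPM in the HK104 controls, and 49.9 and 35.0 CPM in the AF16 cold libraries against 38.8 and 32.9 CPM in the AF16 controls, and cold and control overlapped in AF16. Its hybrid log2 ratio was -2.37 (95% counting interval -2.86 to -1.95), and 279 of its 281 reads came from the HK104 allele. WBGene00040684 had 44.7 CPM in the hybrid cold library against 152 CPM in the hybrid control library, a log2 ratio of -1.77 (95% counting interval -1.97 to -1.57), with 1060 of 1072 reads from the HK104 allele. The strains had 2214 and 2281 CPM in the HK104 cold libraries against 2025 and 2068 CPM in the HK104 controls, and 2805 and 1970.5 CPM in the AF16 cold libraries against 2152 and 2073 CPM in the AF16 controls, far above the hybrid level of assigned reads.

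WBGene00024896 had 11.3 CPM in the hybrid cold library against 36.3 CPM in the hybrid control library. The strains had 262 and 237 CPM in the HK104 cold libraries against 239.7 and 238 CPM in the HK104 controls, and 255 and 224 CPM in the AF16 cold libraries against 239.8 and 231 CPM in the AF16 controls. The log2 ratio was -2.30 for the HK104 allele and -0.07 for the AF16 allele, with 38 HK104 and 31 AF16 reads in the hybrid cold library against 162 HK104 and 28 AF16 reads in the hybrid control library, and the log2 ratio of their sum was -1.67 (95% counting interval -2.10 to -1.28). WBGene00033203 had 46.5 CPM in the hybrid cold library against 103 CPM in the hybrid control library. The strains had 127 and 118 CPM in the HK104 cold libraries against 90.5 and 88.2 CPM in the HK104 controls, and 117 and 101 CPM in the AF16 cold libraries against 79.6 and 83.4 CPM in the AF16 controls. The strains' mean response was a rise of 0.44 ± 0.13 (SE, edgeR FDR = 0.0217), with no overlap between cold and control libraries. The hybrid's log2 ratio of -1.15 (95% counting interval -1.36 to -0.94) came from the HK104 allele, with 174 HK104 and 110 AF16 reads in the hybrid cold library against 450 HK104 and 91 AF16 reads in the hybrid control library. At 3 of these 8 genes, WBGene00032680, WBGene00024896 and WBGene00033203, the alleles thus changed unequally although each strain had nearly the same response.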

How the data were processed

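Titles gave each library's strain, treatment and replicate. The submitters' processing notes name cutadapt, HISAT2 2.2.0, HTSeq 0.11.1 and edgeR, with no role or order. The genome build, annotation, use of strand and the rule for assigning hybrid reads to alleles are not given in the sources used here, so reads of near-identical or overlapping genes are uncertain. The authors deposited whole-number counts without normalization: 1 table of 8 parental libraries, and 1 hybrid table whose columns carry a strain name within each library, which was read here as the allele.

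The parental counts were fitted with edgeR 4.0.16 (R 4.3.3, limma 3.58.1) by its quasi-likelihood test, with 1 coefficient per group, trimmed-mean scaling and filterByExpr at a minimum count of 10, which retained 13503 genes. Calls were made at a Benjamini-Hochberg FDR below 0.05. Hybrid allele counts were summed per library. Log2 ratios used trimmed-mean scaling within each table and a prior count of 2, scaled to library size so that it was the same CPM in every library, and of 1 for single alleles. The strains' responses are means of log2 CPM over 2 libraries. A gene was HK104-like, near the mid-parent or AF16-like where the hybrid's distance from the mid-parent, expressed in units of 0.5 times the strain difference, was above 0.5, between, or below -0.5. Genes more than 2-fold beyond both strains were set apart first.

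The genes named are the 5 largest rises and falls with at least 100 reads in each hybrid library, the 4 farthest above and below all parental ratios with at least 50, and the 3 with the largest called strain difference in each class. Members, classes and lists were chosen with earlier results of these data known. The fits were tested on simulated data. The planned lists by gene symbol were not run, as no identifier matched. Alternatives were DESeq2 1.42.0, other scalings, prior counts, minimum counts and size rules, thinning, the replicate block and leaving out each parental library. The main fit did not treat the replicate numbers as pairs. With the replicate block, strain-difference calls numbered 144 in place of 67. The descriptions number the hybrid libraries 3, as they do parental title replicate 2. No replicates agreed within sampling noise. Deviations of same-numbered libraries correlated between groups from -0.0616 to 0.44.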

Additional observations from a re-analysis of the deposited data

Results flagged for a closer look

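The 10 genes below responded differently to cold in HK104 and in AF16 by edgeR's test of that difference itself, at an FDR below 0.05. All are HK104 minus AF16 differences of the log2 response. They were 2.53 at WBGene00032553 (FDR = 0.0238), 4.33 at WBGene00035673 (FDR = 0.0228), 4.19 at WBGene00028863 (FDR = 0.0247), 4.86 at WBGene00029584 (FDR = 0.0228) and 3.42 at WBGene00024002 (FDR = 0.0246). They were 3.64 at WBGene00041864 (FDR = 0.022), 3.32 at WBGene00026721 (FDR = 0.04), -3.84 at WBGene00038823 (FDR = 0.045), -4.21 at WBGene00036853 (FDR = 0.0228) and -7.67 at WBGene00030657 (FDR = 0.0228). The last value is no measure of size, since AF16 had 0 counts of WBGene00030657 in its controls. All but WBGene00032553 were chosen for the size of this difference.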

How the results depend on the processing

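Read depth limits the hybrid values, as 1623 of 8099 genes had a library with fewer than 50 reads, and 1 library per condition gives no replicate error. Strain-difference calls numbered 67, against 50 with DESeq2 size factors, 24 with upper-quartile scaling, 0 with total counts (787 genes at an unadjusted p below 0.05), 167 in the DESeq2 test, 142 without a filter and 144 with the replicate block, which kept all 67. Mid-parent calls numbered 4950, and 5344 with the replicate block. Among the member calls, HK104-like, mid-parent and AF16-like genes numbered 5, 8 and 2 with upper-quartile scaling, 0 each with total counts, and 3, 10 and 1 at a minimum of 100 reads. At a minimum of 50, 6 were HK104-like and 1 AF16-like, and AF16-like genes numbered 2 with DESeq2 size factors and 3 with parental counts thinned to hybrid depth.

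At a minimum of 50 reads there were 513 hybrid falls of at least 2-fold, 40 genes above and 18 below both strains, and 73 HK104-like, 113 mid-parent and 32 AF16-like genes. At 100 there were 197 rises, 290 falls, 25 above, 9 below, and 37, 62 and 16 in the 3 classes. With a mean of 20 there were 1556 falls, 166 above, 132 below, 214 HK104-like and 163 AF16-like genes. A 1.5-fold rule gave 1371 rises, 1469 falls, 480 above, 194 below, and 333, 402 and 268. The median departure of 0.05 was -0.0021 with DESeq2 size factors and 0.069 in parental replicate 1 alone. The position was 39.7% for genes chosen in replicate 2 and measured in replicate 1.

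Alternatives chosen after seeing the data were these. Parental replicate 1 alone gave 167 AF16-like genes, and replicate 2 alone 232 above and 63 below. Requiring 10% of reads from each allele left 22 below. A hybrid level within 2-fold of the parents left 173 rises, 420 falls, 49 above, 12 below, 56, 88 and 32 genes in the 3 classes and 5, 9 and 3 called genes.

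Leaving out 1 parental library at a time gave 3468 to 6413 mid-parent calls, 0 to 74 strain-difference calls, a median departure of -0.000801 to 0.0653, 70 to 145 genes above and 36 to 56 below. It gave 102 to 272 HK104-like, 157 to 387 mid-parent and 72 to 181 AF16-like genes, 0 to 12, 0 to 30 and 0 to 9 among the called genes, an amplitude of 83.1% to 102% and a position of 37% to 73.6%. The lone library left in a group is assumed to vary like the other groups. The hybrid libraries could not be left out.

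Departures of named genes changed sign in 10 of 579 repeats. Repeats that changed only the choice of genes or the size rule are among the 579 and cannot alter a departure. The share is therefore no measure of stability. WBGene00041865 gave -0.019 with DESeq2 size factors, -0.35 in replicate 1 alone, and -0.32 to 0.308 without 1 library. WBGene00023835 gave 0.357 in replicate 2 alone and -0.469 to 0.246 without 1 library, and WBGene00038279 gave 0.0408 and WBGene00030510 gave 0.0393 in replicate 2 alone. The cause was not tested.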
